A study of Mus musculus with 12 samples.

Results

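The subject is the 9 mouse genes that encode the pore-forming subunits of AMPA receptors (Gria1, Gria2, Gria3 and Gria4) and of kainate receptors (Grik1, Grik2, Grik3, Grik4 and Grik5), taken by symbol from the gene table. All 9 of 9 were among the 24100 genes listed, and all 9 passed the filter on low counts in every comparison. The libraries were made from wells of primary neuron cultures of entorhinal cortex (EC), dissected from C57BL/6J embryos at embryonic day 17, and there were 3 libraries in each of 4 groups. All cultures received an adeno-associated virus of serotype AAV1 at 1e+10 genomes per ml after 7 days in vitro and were harvested 4 days later, and all 4 viruses carried the red fluorescent protein mCherry. Dek-silenced wells received AAV1-mCherry-U6-mDEK-shRNA, a hairpin against Dek, and their controls AAV1-mCherry-U6-scrmb-shRNA, a hairpin with a scrambled sequence. Dek-overexpressing wells received AAV1-hSyn1-mDEK-IRES-mCherry, a mouse Dek cDNA behind the human synapsin promoter, and their controls AAV1-hSyn1-mCherry-WPRE, the empty vector. The U6 promoter is active in any transduced cell, whereas the synapsin promoter favours neurons, so the scrambled and empty vector controls differed in promoter as well as in cargo. The study's methods describe RNA purified from lysed cultures, but the extraction label of these samples also carries the word bacTRAP, a pull-down of ribosome-bound RNA. The study describes that pull-down only for entorhinal tissue of transgenic ECII-bacTRAP mice, not for cultures from C57BL/6J embryos. The values are therefore read here as RNA of whole cultures. The replicates were wells of culture. The sources do not say whether wells of a group shared a dissection, and p-values then measure the spread between wells.

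AMPA receptors are glutamate-gated channels assembled from 4 subunits, and they carry most of the fast excitatory current in the cortex. Gria2 encodes GluA2, the subunit that makes the channel nearly impermeable to calcium, because its messenger RNA is edited at the Q/R site, where a glutamine codon is read as arginine. Receptors without GluA2 let calcium through. Kainate receptors are built in the same way: GluK1, GluK2 and GluK3 (Grik1, Grik2 and Grik3) form channels on their own, while GluK4 and GluK5 (Grik4 and Grik5) raise the affinity for glutamate and reach the surface only in company with GluK1, GluK2 or GluK3. In the cortex Grik1 is best known from GABAergic interneurons.

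The Q/R site is the stretch of sequence that sets Gria2 apart in function among the AMPA subunit genes. It is shown for 7 of the 9 genes as 30 bases of the coding sequence in GENCODE vM21 on GRCm38, written in the direction of the transcript with the Q/R codon in capitals. The window of Gria2 lies in exon 11 of 16 on the minus strand (chr3:80706896-80706925), that of Gria1 in exon 11 of 16 on the plus strand (chr11:57243082-57243111), that of Gria3 in exon 11 of 16 on the plus strand of chromosome X (chrX:41610253-41610282), and that of Gria4 in exon 12 of 17 on the minus strand (chr9:4464122-4464151). The window of Grik5 lies in exon 15 of 20 on the minus strand (chr7:25022482-25022511), and those of Grik1 (chromosome 16) and Grik2 (chromosome 10) each run across an exon junction on the minus strand.
Gria1: ggggccttcatgCAGcaaggatgtgacatt
Gria2: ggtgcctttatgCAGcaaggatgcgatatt
Gria3: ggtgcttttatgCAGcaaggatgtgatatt
Gria4: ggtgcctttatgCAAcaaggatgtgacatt
Grik1: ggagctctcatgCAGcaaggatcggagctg
Grik2: ggagctctcatgCAGcaaggttctgagctc
Grik5: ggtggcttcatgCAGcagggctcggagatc
The genome encodes glutamine at this position in all 9 genes, as CAG in 8 and as CAA in Gria4. The 4 AMPA windows differed from each other by 2 to 4 of 30 bases, and from the kainate windows by 7 to 10. The arginine of GluA2 therefore cannot be read from the gene. The counts analysed here give the amount of transcript and not the edited share of any AMPA or kainate gene.

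A second short sequence is shown because it lies inside the Dek target of the hairpin. The 21 bases of Dek that the published hairpin sequence matches are in exon 6 of 11 (chr13:47099377-47099397, minus strand), and the heptamer AAGAGGA inside them, in capitals, also occurs in annotated 3′ UTRs. This heptamer was singled out in earlier work on the same libraries after values had been seen, so the matches below are a description and no test was made with them. It stops short of the last bases of the target, which pair with the start of the hairpin's antisense strand. It is therefore not the match to that start, and binding of the hairpin to these 3′ UTRs was not tested.
Dek: cgaactcgtgAAGAGGAtctt
Gria1: cctctggcatAAGAGGAaatgttgccc
Gria2: tataaaaaaaAAGAGGAaaaaaaaaca
Gria2: tctcaaacgaAAGAGGAgagcatgtgt
Grik1: agagttttatAAGAGGAatgtagagtc
Grik3: agctcctcagAAGAGGAattgctgtcc
The sense strand of the 3′ UTR held AAGAGGA in 4 of the 9 genes, with a pair of copies in Gria2 (chr3:80688175-80688201 and chr3:80683884-80683910, both in exon 16 of 16). Gria1 had its copy in exon 16 of 16 (chr11:57328688-57328714), Grik3 in exon 16 of 16 (chr4:125709095-125709121), and Grik1 in exon 16 of 16 of a transcript other than the longest (chr16:87912516-87912542). Among 20030 genes with an annotated 3′ UTR, 15.7% held the heptamer, and among the 3575 with a 3′ UTR of at least 2598 bases, the median of the 9 genes, 38.7% did.

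The libraries held 15679567 to 18933382 estimated counts each. Levels are given as CPM, the counts scaled to library size on one scale for all 12 libraries. Levels of different genes are compared only per length. RPKM is CPM per kilobase of the longest coding transcript, and coding length is used where stated. The targeted gene went with the labels: Dek had 7.75 ± 1.00 CPM in Dek-silenced wells and 36.1 ± 0.71 CPM in scrambled wells (mean ± SD, n = 3 each; log2FC = −2.23, edgeR adjusted p = 1.3e-08). Dek had 143 ± 13.5 CPM in overexpressing wells, where the cDNA is counted too, and 38.7 ± 2.55 CPM in empty vector wells (log2FC = 1.89, edgeR adjusted p = 1.4e-08). Neuronal genes were abundant in every library, and 5 of 6 microglial markers had a mean under 1 CPM in every group. GABAergic markers summed to 2556 to 2933 CPM in Dek-silenced wells and 2655 to 2854 CPM in scrambled wells, and markers of excitatory neurons to 314 to 343 and 296 to 343 CPM. In bulk libraries fewer cells of a type and less RNA per cell cannot be told apart.

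Gria1, the main AMPA subunit gene of these cultures, had the highest RPKM of the 9 genes in every group, with 73.1 ± 6.71 RPKM in Dek-silenced, 98.1 ± 2.21 in scrambled, 99.3 ± 3.80 in overexpressing and 99.3 to 101 in empty vector wells (mean ± SD or range, n = 3 each). Behind it the order of the levels depended on the group. In overexpressing and empty vector wells Gria2, Grik5 and Grik1 lay together between 44.8 and 48.2 RPKM on average, and neighbours among them overlapped in range. In scrambled wells they were apart, with Grik1 at 63.2 ± 3.31, Grik5 at 51.3 ± 1.17 and Gria2 at 31.4 ± 0.59 RPKM. In Dek-silenced wells Grik5 came next to Gria1 with 61.9 ± 5.31 RPKM, in ranges that overlapped, followed by Grik1 at 38.0 ± 3.52, while Gria2 at 13.4 ± 1.20 RPKM overlapped with Gria4 at 15.5 ± 2.17. Gria3 and Grik2 had 6.70 to 9.96 RPKM on average in the 4 groups, Grik3 had 2.44 to 2.67, and Grik4 was the lowest throughout, at 0.87 to 1.65. These levels rest on the length of the longest transcript, much of which is untranslated. The coding length was 2652 of 10371 bases for Gria2, 2727 of 9427 for Grik2 and 2760 of 8973 for Grik3. Divided by coding length instead, Gria2 made up 20.5% to 22.2% of the AMPA family in Dek-silenced wells and Gria4 12.1% to 13.3%, so that Gria2 lay above Gria4 without overlap. Grik2 then made up 16.1% of the kainate family in Dek-silenced wells, against 6.94% by transcript length, and Grik3 5.20% against 2.38%. The order between the families changes too. Coding lengths of Grik1 and Grik5 were 2850 and 2940 bases, near that of Gria2. In scrambled wells Gria2 had 326, Grik1 231 and Grik5 193 CPM, and in empty vector wells 485, 171 and 180 CPM. Per coding length Gria2 thus lay above Grik1 and Grik5 in both groups. In Dek-silenced wells Gria2 and Grik1 both had 139 CPM, below Grik5 at 233 CPM.

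Dek silencing was compared with the scrambled hairpin to ask which subunit genes follow the loss of Dek. All 4 AMPA subunit genes and Grik1 fell, Grik4 and Grik5 rose, and Grik2 and Grik3 did not pass the test, so that 7 of 9 were called where 54.7% of the 14232 genes tested were. Of all genes tested 28.5% were lower and 26.2% higher. The median log2FC was −0.51 over the 4 AMPA genes and 0.02 over the 5 kainate genes, against −0.0011 over all genes tested.

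Gria2 had the largest change of the 9. It had 153, 132 and 132 CPM in the 3 Dek-silenced libraries, against 319, 327 and 331 CPM in the 3 scrambled libraries. The groups were far apart, and the mean in Dek-silenced wells lay 57.3% below that in scrambled wells (log2FC = −1.24, SE 0.06, edgeR adjusted p = 2.3e-08). Of the 14232 genes tested, 384 had a log2FC as low or lower, Gria2 included.

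Gria1, whose product GluA1 is inserted into synapses with activity, had 441, 409 and 366 CPM in Dek-silenced and 551, 551 and 529.9 CPM in scrambled libraries. Every silenced library was below every scrambled one, and the mean was 25.5% lower (log2FC = −0.44, SE 0.06, edgeR adjusted p = 7.9e-05). Gria3 had 38.1, 33.7 and 32.6 CPM in Dek-silenced and 54.9, 49.4 and 50.8 CPM in scrambled libraries, again without overlap (log2FC = −0.59, SE 0.08, edgeR adjusted p = 4.8e-05). Gria4, which encodes the subunit with fast kinetics that is prominent in interneurons, had 96.9, 81.9 and 73.6 CPM in Dek-silenced and 110.3, 108 and 114 CPM in scrambled libraries. Its fall was close to that of Gria1 (log2FC = −0.41, SE 0.08, edgeR adjusted p = 0.0015). Dek-silenced replicate 1 had the highest level of all 4 AMPA genes within its group. Without it Gria4 was at a log2FC of −0.52, Gria1 at −0.50 and Gria2 at −1.31.

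**Figure D1:**
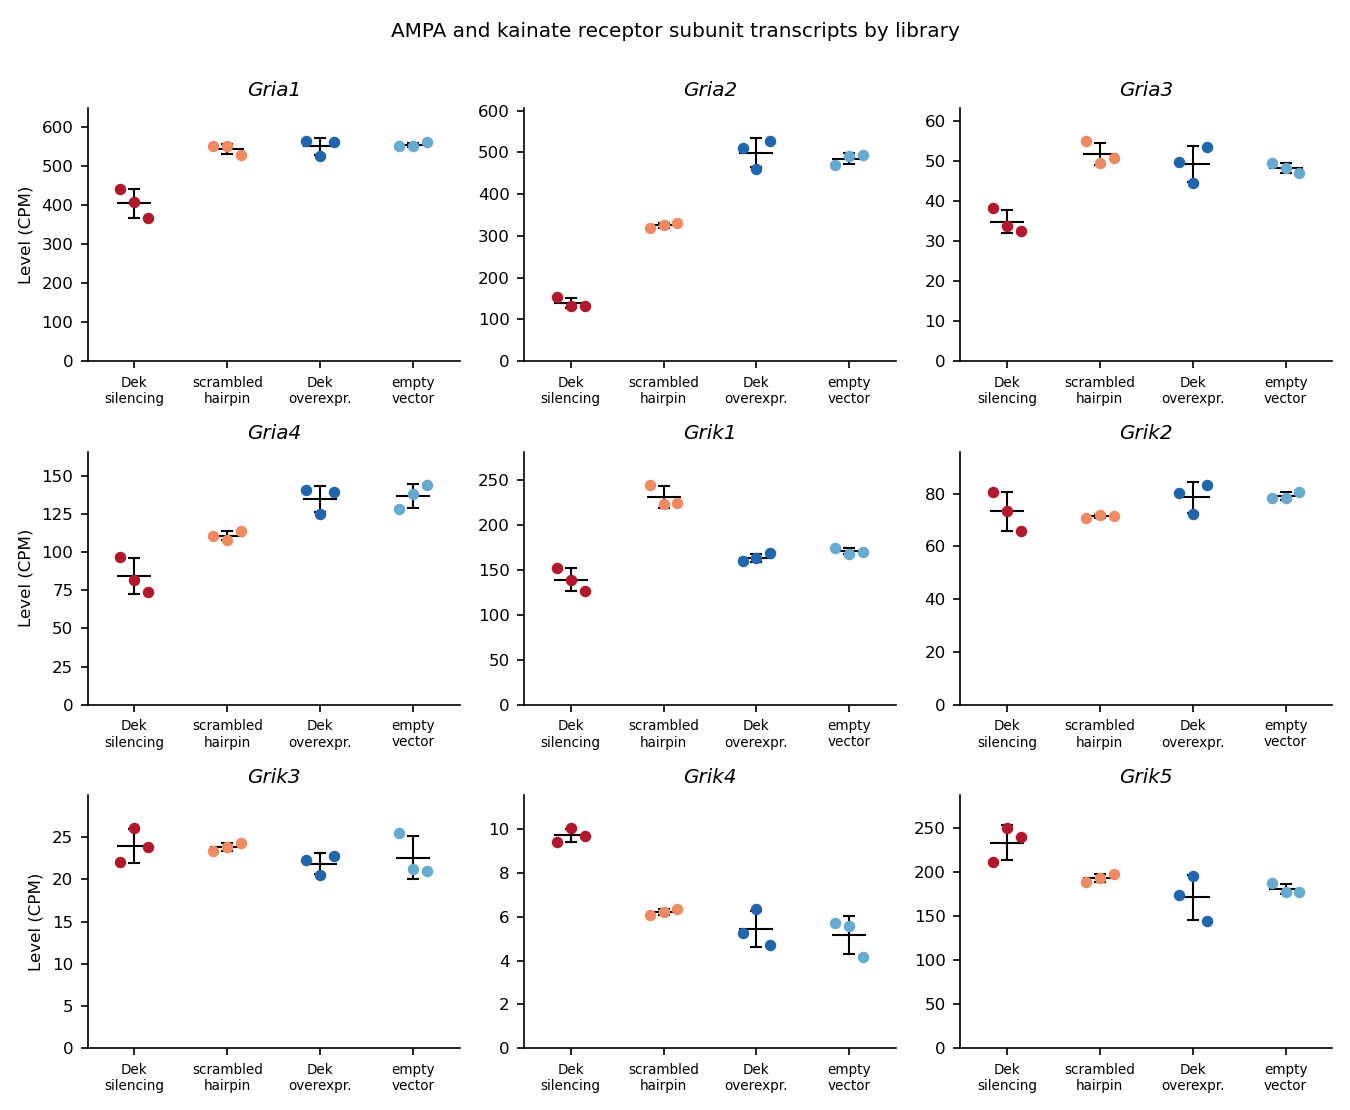
Level of each subunit gene in CPM (y axis, from 0) in the 4 groups (x axis). Each dot is 1 of 3 libraries, the horizontal bar is the mean and the error bar the SD. Gria2 is at 132 to 153 CPM in Dek-silenced, 319 to 331 in scrambled and 460.5 to 527 in the remaining libraries, and Grik4 and Grik5 are highest in Dek-silenced wells.

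Grik1 was the kainate gene that fell. It had 152, 138 and 127 CPM in Dek-silenced libraries, against 245, 224 and 224 CPM in scrambled libraries, and the mean was 39.8% lower (log2FC = −0.75, SE 0.07, edgeR adjusted p = 2.4e-06). The groups did not overlap, as was the case for 61.9% of all genes tested and for 7 of the 9 members. Of 10 GABAergic markers 2 were higher, Dlx1 (log2FC = 0.92) and Dlx2 (1.71), where 26.2% of all genes tested were. The 2 lower ones were Lhx6 (−1.63) and Sst (−0.66), where 28.5% of all genes tested were lower. Without Dek-silenced replicate 1, 3 of the 10 were higher and 4 lower.

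The high-affinity subunit genes went up. Grik5 had 211, 249 and 239.5 CPM in Dek-silenced and 189, 193 and 198 CPM in scrambled libraries (log2FC = 0.26, SE 0.07, edgeR adjusted p = 0.0059). Grik4 was expressed at a low level, with 9.40, 10.0 and 9.68 CPM in Dek-silenced and 6.07, 6.20 and 6.34 CPM in scrambled libraries. Its groups were nevertheless separate (log2FC = 0.63, SE 0.12, edgeR adjusted p = 0.00089).

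Grik2 and Grik3, the remaining channel-forming kainate genes, overlapped between the groups. Grik2 had 80.6, 73.6 and 65.8 CPM in Dek-silenced and 70.8, 72.0 and 71.5 CPM in scrambled libraries, a log2FC of 0.02 with a 95% interval of −0.13 to 0.18 (edgeR adjusted p = 0.81). Grik3 had 22.1, 26.0 and 23.8 CPM in Dek-silenced and 23.3, 23.8 and 24.3 CPM in scrambled libraries, a log2FC of −0.0023 with a 95% interval of −0.19 to 0.19 (edgeR adjusted p = 0.98). Within these intervals a change of either sign could not be detected.

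**Figure D2:**
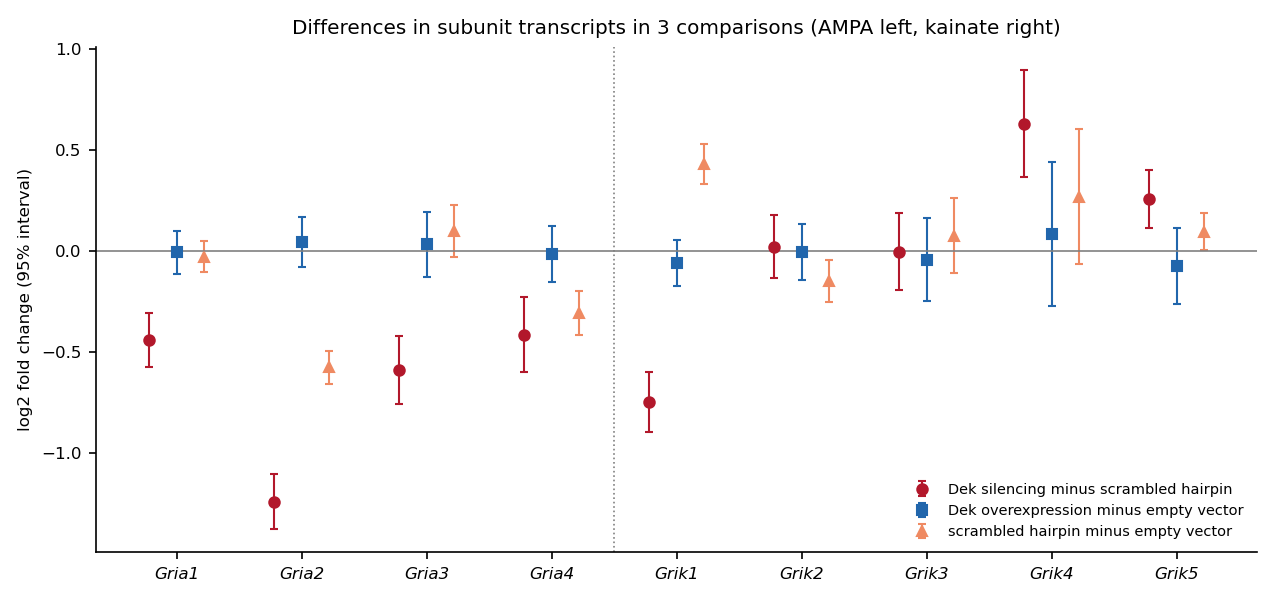
Log2 fold change of the 9 genes (x axis, AMPA left and kainate right of the dotted line) in 3 comparisons, with bars for the 95% interval of edgeR's fit and 3 libraries a group. In Dek silencing against the scrambled control (circles) 5 genes lie below 0 and Grik4 and Grik5 above it, in overexpression against the empty vector (squares) all 9 intervals cross 0, and between the controls (triangles) Gria2 is at −0.58 and Grik1 at 0.43.

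Markers of other kinds moved in the same comparison. The counts are to be read against the 28.5% of all genes tested that were lower and the 26.2% that were higher. Pan-neuronal genes summed to 5885 to 6469 CPM in Dek-silenced and 6826 to 7078 CPM in scrambled wells, with 5 of 8 lower and 1 higher. With library sizes alone 3 of the 8 were lower, and without Dek-silenced replicate 1, 4 were. Oligodendrocyte markers, which were low, summed to 82.4 to 89.8 CPM in Dek-silenced and 30.8 to 41.2 CPM in scrambled wells. Of these, 4 of 5 were higher and 1 lower. Precursor markers were higher in 3 of 5 cases, and in 5 of 5 without Dek-silenced replicate 1. Of 7 astrocyte markers 0 were called by edgeR. The part of these shifts in the subunit values was not tested.

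Because the 4 AMPA genes fell by different amounts, the make-up of the AMPA transcripts changed. As a share of the summed RPKM of the family, Gria2 made up 12.4%, 11.8% and 12.9% in the 3 Dek-silenced libraries and 19.1%, 19.7% and 20.2% in the scrambled libraries, a difference of −7.29 percentage points between the means. Gria1 made up 67.3 ± 0.87% in Dek-silenced and 61.4 ± 0.85% in scrambled wells, and Gria4 14.2 ± 0.64% and 12.7 ± 0.43%. These 3 shares did not overlap between the groups (two-sided exact permutation test, p = 0.1 each, the smallest that 3 against 3 allows). Gria3 held 6.18 ± 0.17% and 6.23 ± 0.31%, in ranges that overlapped. For each unit of Gria2 RPKM there were 5.45 ± 0.29 units of Gria1 in Dek-silenced wells and 3.13 ± 0.12 in scrambled wells (mean ± SD, n = 3 each). The size of this ratio depends on the length used. By coding length Gria1 made up 60.7% and Gria2 21.4% in Dek-silenced wells, and 52.2% and 32.1% in scrambled wells. The AMPA family as a whole summed to 109 ± 10.4 RPKM in Dek-silenced and 160 ± 1.48 RPKM in scrambled wells, 32.0% lower, so the gain in the share of Gria1 went along with a lower level of Gria1 itself.

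In the kainate family the leading gene differed. Grik5 made up 50.8%, 56.8% and 58.1% of the summed RPKM in Dek-silenced libraries and 39.1%, 41.4% and 41.9% in scrambled libraries. Grik1 made up 37.8%, 32.5% and 31.6% in Dek-silenced libraries and 52.2%, 49.4% and 49.0% in scrambled libraries. Thus Grik5 led in every silenced library and Grik1 in every scrambled library, and the ratio of Grik5 to Grik1 RPKM was 1.64 ± 0.26 in Dek-silenced and 0.81 ± 0.06 in scrambled wells. In empty vector libraries Grik5 led narrowly, with 45.4%, 44.9% and 44.7% against 43.5%, 44.0% and 44.3% for Grik1. With mean coding transcript length Grik1 led in empty vector wells, at 42.8% against 38.6% on average. Grik4 held 1.47 ± 0.03% in Dek-silenced and 0.84 ± 0.03% in scrambled wells. The kainate total differed less than the AMPA total, at 112 ± 3.82 RPKM in Dek-silenced and 126 ± 2.31 RPKM in scrambled wells (10.9% lower). In empty vector wells it was 107 ± 2.76 RPKM. Against that control Dek-silenced wells were 5.23% higher, in ranges that overlapped, and scrambled wells 18.1% higher, without overlap.

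**Figure D3:**
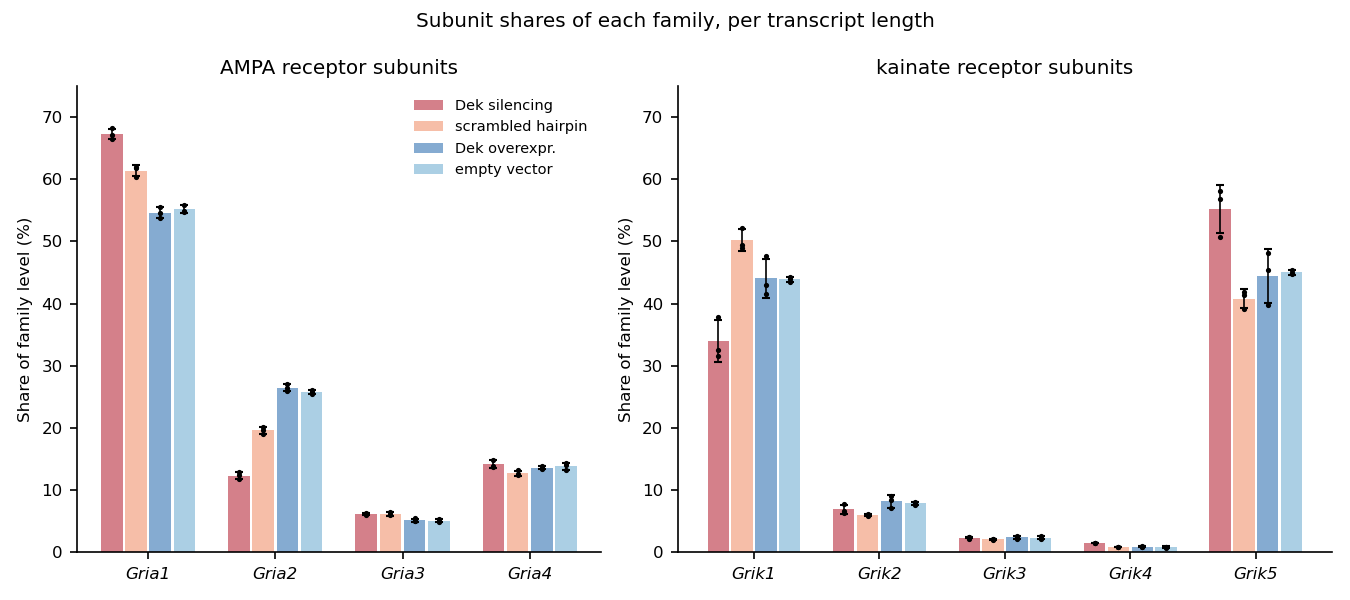
Share of each gene in the summed RPKM of its family (y axis, percent) in the AMPA family (left) and the kainate family (right). Bars are means, error bars SD and dots the 3 libraries of each group, in the order Dek silencing, scrambled hairpin, Dek overexpression and empty vector. Gria2 takes 12.4% in Dek-silenced, 19.6% in scrambled, 26.5% in overexpressing and 25.8% in empty vector wells, and Grik5 exceeds Grik1 by most in Dek-silenced wells.

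Dek overexpression was compared with the empty vector to ask whether a gain of Dek moves the same genes. None of the 9 was called by edgeR, where 1 of 14089 genes was (0.00710%, Dek itself), and 0 of the 9 had an unadjusted p below 0.05, as did 6.60% of all genes tested. DESeq2 and limma-voom called 0 of the 9 too. Gria2 had 511, 460.5 and 527 CPM in overexpressing libraries, against 469.6, 492 and 495 CPM in empty vector libraries, in ranges that overlapped (log2FC = 0.05, 95% interval −0.08 to 0.17, edgeR adjusted p = 0.92). For Gria1 the 95% interval ran from −0.11 to 0.10, for Gria3 from −0.13 to 0.19 and for Gria4 from −0.15 to 0.12. Among the kainate genes Grik1 was at −0.06 (95% interval −0.17 to 0.05) and Grik5 at −0.07 (−0.26 to 0.11). Grik4 had the widest interval, from −0.27 to 0.44, at a mean of 5.44 CPM in overexpressing and 5.15 CPM in empty vector wells. Grik5 was the most scattered of the abundant genes, with 173, 195 and 145 CPM in the overexpressing libraries. All 9 shares overlapped between the groups.

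The difference between the responses to silencing and to overexpression was itself tested, in a fit of all 12 libraries. It was called for 7 of 9 genes, where 43.0% of 14604 genes were (20.4% higher and 22.7% lower). The silenced and scrambled libraries enter this fit as well as the comparison above. The log2 response to silencing minus that to overexpression was −1.27 for Gria2 (SE 0.09, edgeR adjusted p = 3.5e-09) and −0.67 for Grik1 (SE 0.09, edgeR adjusted p = 7.8e-06). It was −0.60 for Gria3, −0.42 for Gria1 and −0.38 for Gria4 (edgeR adjusted p = 0.012). For Grik4 and Grik5 it was 0.57 and 0.35 (edgeR adjusted p = 0.033 and 0.028). Their calls were weak: Grik4 lost its call in 9 and Grik5 in 7 of the 12 fits that left out 1 library, with adjusted p up to 0.094 and 0.074. With the correction for GC content and transcript length described below, Gria4 lost its call as well (−0.21, edgeR adjusted p = 0.055), Grik5 was at 0.15 (edgeR adjusted p = 0.048, and 0.063 with the replicate block too), and Grik2 was called higher (0.36, edgeR adjusted p = 0.0004).

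The scrambled hairpin was set against the empty vector to show how far the controls of the silencing and overexpression arms differ. Of the 9 genes 4 were called, where 43.1% of 14096 genes were, 1 higher (21.3% of all genes) and 3 lower (21.8%). The groups did not overlap for 6 of the 9, as for 53.4% of all genes tested. Gria2 had 319, 327 and 331 CPM in scrambled libraries, against 469.6, 492 and 495 CPM in empty vector libraries. It was lower in every scrambled library (log2FC = −0.58, SE 0.04, edgeR adjusted p = 2.2e-07). Grik1 had 245, 224 and 224 CPM in scrambled and 174, 168 and 171 CPM in empty vector libraries, higher without overlap (log2FC = 0.43, SE 0.05, edgeR adjusted p = 9.7e-06). Gria4 was lower (log2FC = −0.31, SE 0.05), and Grik2 was slightly lower (log2FC = −0.15, SE 0.05, edgeR adjusted p = 0.022). The Grik2 call was lost in 4 of the 6 fits that left out 1 library, scrambled replicate 2 or 3 or empty vector replicate 2 or 3 (adjusted p of 0.055 to 0.071). Gria1 was at −0.03, Gria3 at 0.10, Grik3 at 0.08, Grik4 at 0.27 and Grik5 at 0.10, and these did not pass the test. Gria2 made up 19.6 ± 0.54% of AMPA RPKM in scrambled and 25.8 ± 0.31% in empty vector wells.

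Cell type markers moved between the controls too, where 21.3% of all genes tested were higher and 21.8% lower. Of 10 GABAergic markers 8 were higher and 1 lower, and they summed to 2655 to 2854 CPM in scrambled and 2320 to 2375 CPM in empty vector wells. Of 6 excitatory markers 4 were lower and 0 higher, and they summed to 296 to 343 CPM in scrambled and 487 to 519 CPM in empty vector wells. Astrocyte markers were higher in 2 of 7 cases and lower in 0. They summed to 499 to 764 CPM in scrambled and 403 to 529 CPM in empty vector wells, in ranges that overlapped. Y-linked genes were read as a sign of the embryos' sex mix, and 4 of 4 were lower. Their transcripts summed to 57.4 to 58.2 CPM in scrambled and 92.3 to 102 CPM in empty vector wells. They were at 52.8 to 61.7 CPM in Dek-silenced and 93.0 to 112 CPM in overexpressing wells, so they split the hairpin libraries from the others and not the silenced from the scrambled ones. The controls thus differed in this sign as well as in the kind of virus. The parts of culture make-up and of virus in the subunit values cannot be told apart between the controls.

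Set against the empty vector, Dek-silenced wells were lower in the 4 AMPA genes and Grik1 and higher in Grik4 and Grik5, where 67.4% of 14292 genes were called (34.0% higher and 33.5% lower). The groups did not overlap for these 7, as for 71.0% of all genes tested. The silenced libraries are those compared with the scrambled hairpin above. Gria2 was at a log2FC of −1.80 (SE 0.06, edgeR adjusted p = 3.1e-10), Gria4 at −0.70, Gria3 at −0.47 and Gria1 at −0.45. Grik1 was at −0.30 (edgeR adjusted p = 0.0012), nearer to 0 than against the scrambled hairpin. Grik4 was at 0.92 and Grik5 at 0.37. With the GC and length correction Gria3 lost its call (−0.12, edgeR adjusted p = 0.13), and Grik2 (0.60) and Grik3 (0.41, edgeR adjusted p = 0.001) were called higher. Gria1 was then at −0.20, Gria2 at −1.05, Gria4 at −0.35 and Grik5 at 0.18, each still called.

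The 9 transcripts span a wide range of base composition and length. Gria2 and Grik2 are long and poor in GC, with 36.8% GC over 10371 bases and 37.9% over 9427 bases, and Grik5 is short and rich in GC, with 62.3% over 3763 bases. When changes that go with GC content and transcript length across all genes were removed from each library, the 7 calls in silencing against the scrambled hairpin held. Gria2 was then at −0.94, Grik1 at −0.74, Gria4 at −0.26 and Grik5 at 0.16. Grik2 passed the test as higher, at 0.31 (edgeR adjusted p = 0.00028). Between the controls the correction altered more. Gria2 was at −0.11 (edgeR adjusted p = 0.032, and 0.070 with the replicate block too), against −0.58 without it, and Gria4 no longer passed the test (−0.09, edgeR adjusted p = 0.16). Grik1 stayed at 0.47 (edgeR adjusted p = 5.5e-06), and Grik2 turned to 0.29. Gria1 turned to 0.14 (edgeR adjusted p = 0.0093), and Gria3 (0.31, edgeR adjusted p = 0.0014) and Grik3 (0.29, edgeR adjusted p = 0.012) were called higher. The correction removes any change that follows GC content or length, whatever its source, and the source was not tested.

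**Figure D4:**
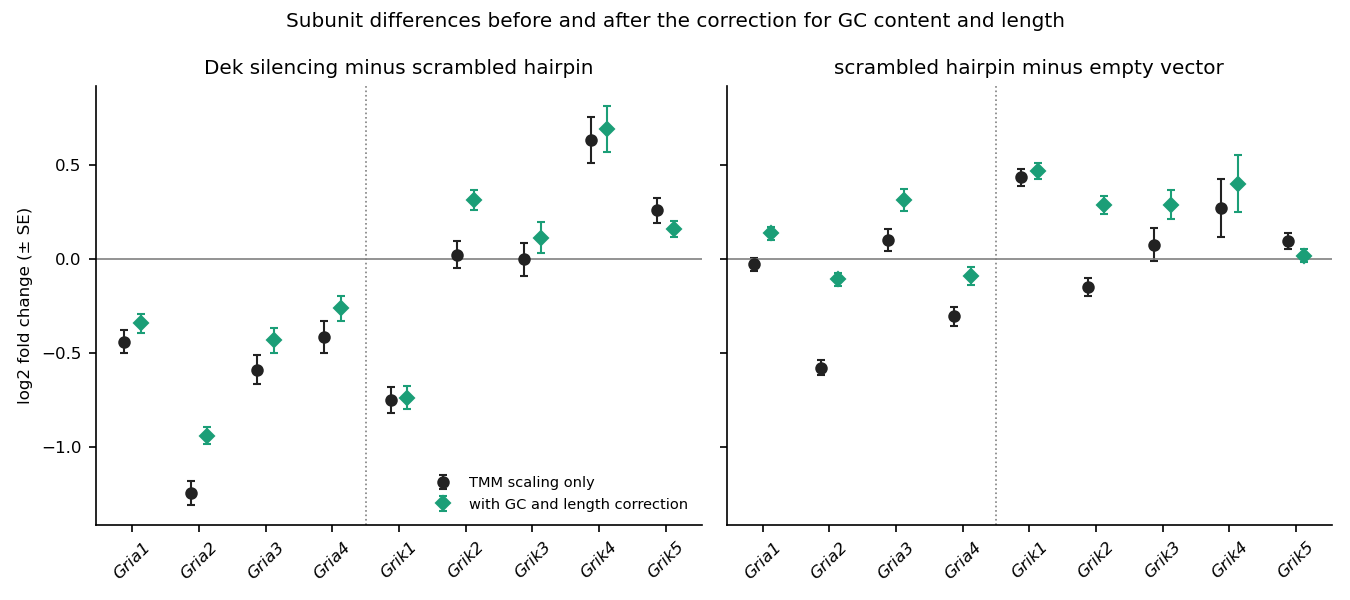
Log2 fold change with SE (y axis) of the 9 genes (x axis) with TMM scaling only (circles) and with the added correction for GC content and transcript length (diamonds), from 3 libraries a group, for Dek silencing minus scrambled hairpin (left) and scrambled hairpin minus empty vector (right). In silencing Gria2 lies at −1.24 without and −0.94 with the correction, and between the controls at −0.58 without and −0.11 with it.

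Other genes of the receptor complexes moved in both directions in Dek-silenced against scrambled wells. Each list below is to be read against the 26.2% of all genes tested that were higher and the 28.5% that were lower. Of 18 genes for AMPA auxiliary subunits and assembly factors, 12 were higher and 3 lower, with a median log2FC of 0.25. They included Cpt1c, which interacts with GluA1 in the endoplasmic reticulum, with 150 CPM in Dek-silenced and 88.1 CPM in scrambled wells (log2FC = 0.76, SE 0.06, edgeR adjusted p = 8.8e-07). Abhd6, a lipase that limits delivery of AMPA receptors to the surface, had 47.6 CPM in Dek-silenced and 27.1 CPM in scrambled wells (log2FC = 0.80, SE 0.07). Frrs1l, which acts in AMPA receptor assembly, was at 0.57 (SE 0.09). The 3 lower genes were Shisa9 (log2FC = −0.47), Shisa7 (−0.43) and Shisa6 (−0.51), a family of auxiliary subunits. The direction of Frrs1l depended on the control. In Dek-silenced against empty vector wells it was lower (log2FC = −0.56, edgeR adjusted p = 9.7e-06). In that comparison 11 of the 18 genes were higher and 5 lower, where 34.0% and 33.5% of all genes tested were.

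Of 16 genes for trafficking and anchoring, 8 were lower and 2 higher, with a median log2FC of −0.28. The number called, 10 of 16, is near the background of 54.7%. Akap5, the scaffold that brings kinase and phosphatase to AMPA receptors, had 16.8 CPM in Dek-silenced and 60.3 CPM in scrambled wells (log2FC = −1.86, SE 0.09, edgeR adjusted p = 1.6e-08). Gripap1, which acts in receptor recycling, was at −0.95 (SE 0.08), and Epb41l1, which links GluA1 to the cytoskeleton, at −0.71 (SE 0.05). The 2 higher genes were Nptx1, a pentraxin that clusters AMPA receptors at synapses (0.69, SE 0.12), and Napa (0.15, SE 0.05, edgeR adjusted p = 0.022).

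Of 6 kainate receptor partners, 4 were lower and 1 higher. Klhl24, which binds GluK2, had 17.4 CPM in Dek-silenced and 53.6 CPM in scrambled wells (log2FC = −1.64, SE 0.08, edgeR adjusted p = 1.6e-08). Neto1, an auxiliary subunit, was at −0.56 (SE 0.11), while its relative Neto2 did not pass the test (0.22, SE 0.12, edgeR adjusted p = 0.17). C1ql3 was higher (0.55, SE 0.11) and C1ql2 lower (−0.46, SE 0.18, edgeR adjusted p = 0.049). With library sizes alone, and also without Dek-silenced replicate 1, 2 and not 4 of the partners were lower. In Dek-silenced against empty vector wells C1ql2 was higher instead (0.52, edgeR adjusted p = 0.041). Of the 6 partners 2 were then higher and 3 lower, where 34.0% and 33.5% of all genes tested were.

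Adarb1, the enzyme that edits the Q/R site of Gria2, was at 0.10 (edgeR adjusted p = 0.15) and Adar at −0.06 (edgeR adjusted p = 0.34). Adarb2, a relative with no known editing activity, had 56.5 CPM in Dek-silenced and 109 CPM in scrambled wells (log2FC = −0.96, SE 0.09, edgeR adjusted p = 3.1e-06). Of 8 NMDA and delta receptor genes tested, 2 were higher, Grin1 (0.25, SE 0.05) and Grin2a (0.79, SE 0.14), and 1 lower, Grin3a (−0.71, SE 0.07). None of these lists held a gene called by edgeR in overexpressing against empty vector wells.

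Over the 12 libraries the genes most like Gria2 in level, by Pearson correlation of log2(CPM + 0.5) among 11015 genes with a mean of at least 5 CPM, were Ttc3 (r = 0.999), Klf6 (0.998), Ncoa7 (0.998), Stk4 (0.997) and Katnal1 (0.997). Ttc3 had 724 CPM in Dek-silenced, 1275 in scrambled, 1636 in overexpressing and 1670 in empty vector wells, the same order as Gria2 in the first 3 groups. Among the other members Gria4 (0.964) and Gria1 (0.931) were nearest to Gria2, and Grik5 (−0.877) and Grik4 (−0.945) were farthest. The 12 points are 4 groups of 3 and share their groups and depth, so r describes the order of the groups.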

How the data were processed

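RNA was sequenced from 12 wells (200 ng of RNA each, TruSeq kit). The authors deposited estimated counts per gene, and the submitters' processing notes name Salmon, DESeq2 and mm10 without versions. Of the deposited values 38.1% were not whole (tolerance 1e-06) and were rounded. Strand settings were not given in the sources used here. Depth was 15679567 to 18933382 counts per library. Genes kept by filterByExpr were tested with edgeR 4.0.16 (R 4.3.3; robust quasi-likelihood, TMM), with only the libraries of each comparison, or all 12 for the difference of responses. p-values were adjusted by Benjamini-Hochberg over all genes tested and called below 0.05. SE is the absolute log2FC divided by the square root of F. Levels used one TMM scaling over 12 libraries. Lengths, GC content and sequences came from GENCODE vM21 on GRCm38 (23779 of 24100 genes matched). Shares and totals were compared by exact two-sided permutation.

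All 9 subunit genes were named, and of the other lists the genes with the smallest adjusted p and those of short lists. The members and lists were chosen with earlier results of these data known. Alternatives were DESeq2 1.42.0, limma 3.58.1 (voom), other scalings and filters, a replicate block, a GC and length correction (natural splines with 5 degrees of freedom) and leaving out each library. The tests were checked on simulated data. Tables and plots used Python 3.11.15, pandas 2.3.3, numpy 2.4.6 and matplotlib 3.10.9.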

Additional observations from a re-analysis of the deposited data

How the results depend on the processing

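In silencing against the scrambled hairpin the 7 member calls held under all 16 alternatives, and in overexpression 144 of 144 member values stayed on the same side of the threshold. With the GC and length correction Gria1 and Grik2 changed sign between scrambled and empty vector wells, to 0.14 and 0.29 (0.14 and 0.29 with the replicate block too), and Grik2 in silencing against the empty vector to 0.60 (0.60 with the block too). The number of genes called in overexpression was 1, against 4 with DESeq2, 7 with no filter, 13 with the GC and length correction, 7 with that correction and the block, and 1 to 7 with 1 library left out. Between the controls 6072 genes were called, against 3137 with correction and block. The difference in the Gria2 share was −7.29 percentage points, against −10.6 from summed counts, −8.75 with mean coding transcript length and −10.7 with coding length. The log2 ratio of the kainate total was −0.17, against −0.082 with library size alone. That scaling gave 4793 higher and 3210 lower calls in silencing, against 3730 and 4060, and 3755 higher and 2733 lower in the difference of responses, against 2972 and 3315. The cause of these shifts was not tested.

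Whether the replicate numbers pair the wells could not be settled from 3 wells a group. Same-numbered silenced and scrambled libraries deviated together with r of 0.304, 0.133 and 0.0697. Silenced replicate 1 was nearest to its own number (at most −0.179 with another). Replicates 2 and 3 were slightly nearer to another number (0.15 and 0.0739). The replicate block gave 8620 calls in silencing (7790 without it), 1 in overexpression, 4897 between the controls, 9042 in silencing against the empty vector and 6126 in the difference of responses, and among the members only Grik2 between the controls lost its call (−0.15, edgeR adjusted p = 0.068). That call of Grik2 was also lost with DESeq2 (adjusted p = 0.058), with all 12 libraries in one fit (0.11) and in 4 of 6 fits without 1 library. Alternatives for the pathway lists were chosen after seeing the data. At 3 wells a group, Grik4, at 4 to 10 CPM, had the least precise values.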
